A study of Arabidopsis thaliana with 64 samples.

Results

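The genes described here were 17 alpha-expansins (EXPA1 to EXPA6, EXPA8 to EXPA17 and EXPA20) and 20 xyloglucan endotransglucosylase/hydrolases (XTH4, XTH5, XTH9, XTH12 to XTH26, XTH31 and XTH33) of Arabidopsis. They were taken by locus from a given list, and all 37 were represented on the arrays, by 53 probes, among 26783 genes that the probes could be matched to. Expansins are secreted proteins that loosen the cell wall at acidic pH without cutting its polymers. XTH enzymes cut xyloglucan, the main tethering glycan of the wall in this species, and join the cut end to another chain or, in a few members, to water. Both families are known for their part in the expansion of root and shoot cells, and plasma membrane proton pumps supply the acidic wall in which expansins act.

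RNA was measured on 64 one-colour arrays, 1 RNA sample each, in 3 sets. The first compared the hy5-215 mutant, which lacks the light-signalling factor HY5, with its own WT (Col-0), and the next compared 35S:BBX32-SRDX, in which the B-box protein BBX32 is fused to a repression domain and driven by the constitutive 35S promoter, with another WT (Col-0). The labels do not say which transgenic line was used. Both of these sets used 4-week-old plants under white light, with roots and leaves (called shoots here), Pi-deficient and Pi-sufficient medium, and 3 replicates per group. The light set held 3-week-old WT seedlings under red (R) or blue (B) light, with roots and shoots, the same Pi levels and 2 replicates per group. Its labels say shoot where those of the white-light sets say leaf, so the shoots of the sets need not hold the same tissue. The labels do not say whether replicates were separate plants or cultures, so p-values measure the spread between these samples only.

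Each value below is the log2 of the processed fluorescence of a gene's probe on an array, relative to the 75th percentile of that array, so 0 is the level of a fairly bright probe. Values of different genes cannot be ranked against each other on this scale, because probes differ in brightness. A gene was called when limma's adjusted p was under 0.05 over all genes tested and its fold change was over 2 or under 0.5, or, for a difference between Pi responses, by the adjusted p alone. A replicate block is a fit with the array slide, which the replicate number marks, as a further term. Probes well above background made up 57.1 to 66.8% of all probes on root arrays and 45.1 to 61.1% on shoot arrays of the light set, against 68.7 to 83.8% in the white-light sets. The light set thus had fewer replicates and dimmer arrays. The median SD over genes was 0.16 in its roots and 0.13 in its shoots. In the white-light sets it was 0.12 to 0.17 in roots and 0.17 to 0.21 in shoots. These medians do not rank the spread of the sets, because a median SD tends to be lower with fewer replicates per group, as in the light set. In the light set they also covered 15948 genes in roots and 13053 in shoots, where 18563 and 17110 were tested. Whether the light set varied more or less than the other sets was therefore not settled.

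The labels were checked against the manipulated genes. In Pi-deficient roots HY5 stood at -0.72, -0.79 and -0.90 in hy5-215, against 1.52, 1.12 and 1.1 in the WT. In shoots its signal did not follow the label, with -0.61, -1.82 and -1.81 in the Pi-deficient libraries labelled hy5-215 and -0.28, -1.5 and -2.35 in the WT. The authors describe hy5-215 as made with ethyl methanesulfonate, which need not remove the transcript. The HY5 signal in shoots therefore does not settle whether the label is right. BBX32 was higher in 35S:BBX32-SRDX than in its WT by 10.35 and 10.64 on the log2 scale in Pi-deficient and Pi-sufficient roots, and by 8.21 and 8.86 in shoots. One WT root array of that set (Pi deficient, replicate 2) had a BBX32 signal of -1.92, against -5.80 and -5.92 in the other 2 replicates of its group. The 4 calls lost without it, outside the comparisons of roots with shoots, are named below. Refitted values are given for some of the calls that were kept. Marker levels and fits with the replicate block were not recomputed without it.

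In roots, 26 members were well above background on every array of all 12 groups, 10 in some groups only, and EXPA5 in none. All 37 members were tested for at least 1 comparison of 2 groups in roots or shoots. The filter on dim probes removed EXPA5 and XTH25 from the hy5-215 root tests, EXPA5 from the 35S:BBX32-SRDX root tests, and 6 members (EXPA2, EXPA3, EXPA5, EXPA10, EXPA16 and XTH25) from the light set root tests. Of the 37 members, 16 had no call in any root comparison of 2 groups, among them EXPA1, EXPA13, EXPA14, EXPA20, XTH17, XTH18, XTH19 and XTH22.

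The first question was how the roots of WT plants changed these genes when Pi was scarce. Under white light, EXPA12, EXPA3, XTH13 and XTH20 were higher and XTH21 was lower in Pi-deficient than in Pi-sufficient roots in both WT groups, which came from separate sets with no array in common. In the WT of the hy5-215 set, 7 of 35 members were called, 4 higher and 3 lower, where 7.23% of all genes were called (4.07% higher and 3.16% lower). The WT of the 35S:BBX32-SRDX set had 11 of 36 called, 7 higher and 4 lower, where 5.76% of all genes were (3.12% higher and 2.64% lower). Over all members tested the median log2 fold change was 0.02 in the WT of the hy5-215 set and 0.23 in the WT of the 35S:BBX32-SRDX set, and over all genes it was 0.01 and 0.02.

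EXPA12 (AT3G15370) had the widest span of the alpha-expansins called here. It stood at -1.08, 0.17 and -0.69 in Pi-deficient roots of the hy5-215 set's WT, against -5.73, -4.36 and -4.97 in Pi-sufficient roots, a 22.4-fold difference (log2 fold change 4.49 ± 0.37 SE, limma adjusted p = 4.1e-05). For the WT of the 35S:BBX32-SRDX set the values were -2.15, -0.83 and -0.54 in Pi-deficient roots and -5.93, -4.84 and -5.14 in Pi-sufficient roots, a 17.5-fold difference. No Pi-sufficient array of either WT reached any Pi-deficient one.

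EXPA3 (AT2G37640) moved in the same direction. It was at -0.97, -1.19 and -0.91 in Pi-deficient roots and at -4.13, -3.85 and -3.54 in Pi-sufficient roots of the hy5-215 set's WT (log2 fold change 2.81 ± 0.18). In the other WT it was at -1.80, -1.20 and -1.18 in Pi-deficient roots and at -4.15, -4.12 and -3.78 in Pi-sufficient roots (2.62 ± 0.24). The groups of both WTs were separated by more than the spread within them. Under B its probe was dim on most arrays and the gene was not tested there.

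Among the XTH genes, XTH20 (AT5G48070), a member of the subgroup that also holds XTH17, XTH18 and XTH19, was at 1.14, 1.26 and 1.46 in Pi-deficient roots and at -0.83, -0.27 and -0.37 in Pi-sufficient roots of the hy5-215 set's WT. In the other WT it was at 1.45, 1.46 and 1.13 against 0.30, -0.15 and -0.13. The 3 close relatives of XTH20 were not called in either. XTH13 rose by 1.17 on the log2 scale in the WT of the hy5-215 set and by 1.51 in the WT of the 35S:BBX32-SRDX set.

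XTH21 (AT2G18800), an XTH known for its part in primary root growth, moved the other way. Its values were -4.70, -4.85 and -4.94 in Pi-deficient roots, against -2.54, -3.12 and -2.89 in Pi-sufficient roots, in the WT of the hy5-215 set (log2 fold change -1.98 ± 0.15). In the other WT they were -4.00, -5.37 and -4.55, against -3.0, -2.85 and -2.90 (-1.72 ± 0.28). Its highest Pi-deficient array lay below its lowest Pi-sufficient array in both.

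The remaining calls came from 1 WT each. XTH33 and XTH4 were called in the WT of the hy5-215 set. XTH33, whose product is held at the plasma membrane, stood at -3.59, -3.28 and -3.26 in Pi-deficient and at -2.42, -1.86 and -2.01 in Pi-sufficient roots. XTH4 stood at 2.17, 2.32 and 2.40 in Pi-deficient and at 3.13, 3.54 and 3.47 in Pi-sufficient roots. The arrays of the 2 Pi levels did not overlap for either gene. The other calls in the WT of the 35S:BBX32-SRDX set were XTH26 (1.87), XTH14 (1.42) and EXPA9 (1.20), which rose, and EXPA15 (-1.39), XTH31 (-1.34) and EXPA10 (-1.03), which fell, and the replicate block added XTH12 (1.17), where 6.88% of all genes were called. XTH14 stood at 4.58, 4.97 and 4.76 in Pi-deficient and at 2.80, 3.95 and 3.32 in Pi-sufficient roots of that WT, and EXPA15 at 0.68, 0.62 and 0.65 in Pi-deficient and 2.24, 2.07 and 1.81 in Pi-sufficient roots. XTH14 and XTH26 are known for activity in the root elongation zone and root hairs. Whether the 2 WTs differed in these genes was not tested, because they were fitted apart.

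Markers of root hairs moved with these genes under white light, and the leaf markers named below did so without a call. All 7 root hair markers (COBL9, RHD6, RSL4, PRP3, LRX1, EXPA7 and EXPA18) were higher in Pi-deficient roots of both WTs, with 2 called in the hy5-215 set and 6 called in the 35S:BBX32-SRDX set (median log2 fold change 0.92 and 1.21). A summed level, or summed log2 level, is the log2 of the sum of the markers' unlogged values on an array. The brightest probes therefore weigh most in it. For the root hair markers it was 4.53 to 4.80 in Pi-deficient and 3.03 to 4.00 in Pi-sufficient roots of the 35S:BBX32-SRDX set's WT. All 5 leaf markers (RBCS1A, RBCS1B, CAB1, LHCB2.2 and RCA) had negative fold changes in that WT (median -1.15), with summed log2 levels of 3.24 to 4.52 in Pi-deficient and 4.73 to 5.10 in Pi-sufficient roots, and EXPA10, a gene called higher in shoots than in roots, fell beside them. In the hy5-215 set's WT they had a median of -0.86, with 2.52 to 4.85 in Pi-deficient and 4.29 to 4.49 in Pi-sufficient roots, and 0 of the 5 were called by limma in either WT, with 3 in the 35S:BBX32-SRDX set and 1 in the hy5-215 set at an unadjusted p under 0.05. In the light set the summed levels of the 2 Pi states overlapped under B and not under R. Those of root hair markers were 3.01 to 3.40 in Pi-deficient and 2.98 to 3.27 in Pi-sufficient roots under B, and 2.85 to 3.21 and 2.49 to 2.64 under R. Those of leaf markers were 3.29 to 4.61 and 3.61 to 4.23 under B, and 1.12 to 2.04 and 2.14 to 2.75 under R. The 5 leaf markers are photosynthesis genes. The authors state that roots can turn green in light, and reported such genes lower in roots, but not shoots, of both lines. The level of these markers in roots is therefore no measure of leaf tissue alone. In such bulk samples fewer cells of a type and less RNA per cell cannot be told apart, and the part of the root hair and leaf markers in the member values was not tested. Of 6 markers of dividing cells 0 were called by limma in either WT, with 2 in the hy5-215 set and 1 in the 35S:BBX32-SRDX set at an unadjusted p under 0.05.

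Without the WT replicate 2 array whose BBX32 signal was high, EXPA12 stayed at 3.96 (adjusted p = 0.00254) and EXPA3 at 2.52 (adjusted p = 0.00121). XTH13 (1.44, adjusted p = 0.131), XTH14 (1.32, 0.0732) and EXPA10 (-1.13, 0.0709) were then no longer called. The other calls of the Pi response in that WT were kept, with XTH21 at -1.35 (limma adjusted p = 0.00338) and EXPA9 at 1.14 (0.0356). XTH13 in the hy5-215 set was also lost without any 1 of 4 single arrays (log2 fold change 1.01 to 1.40 over the refits).

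**Figure D1:**
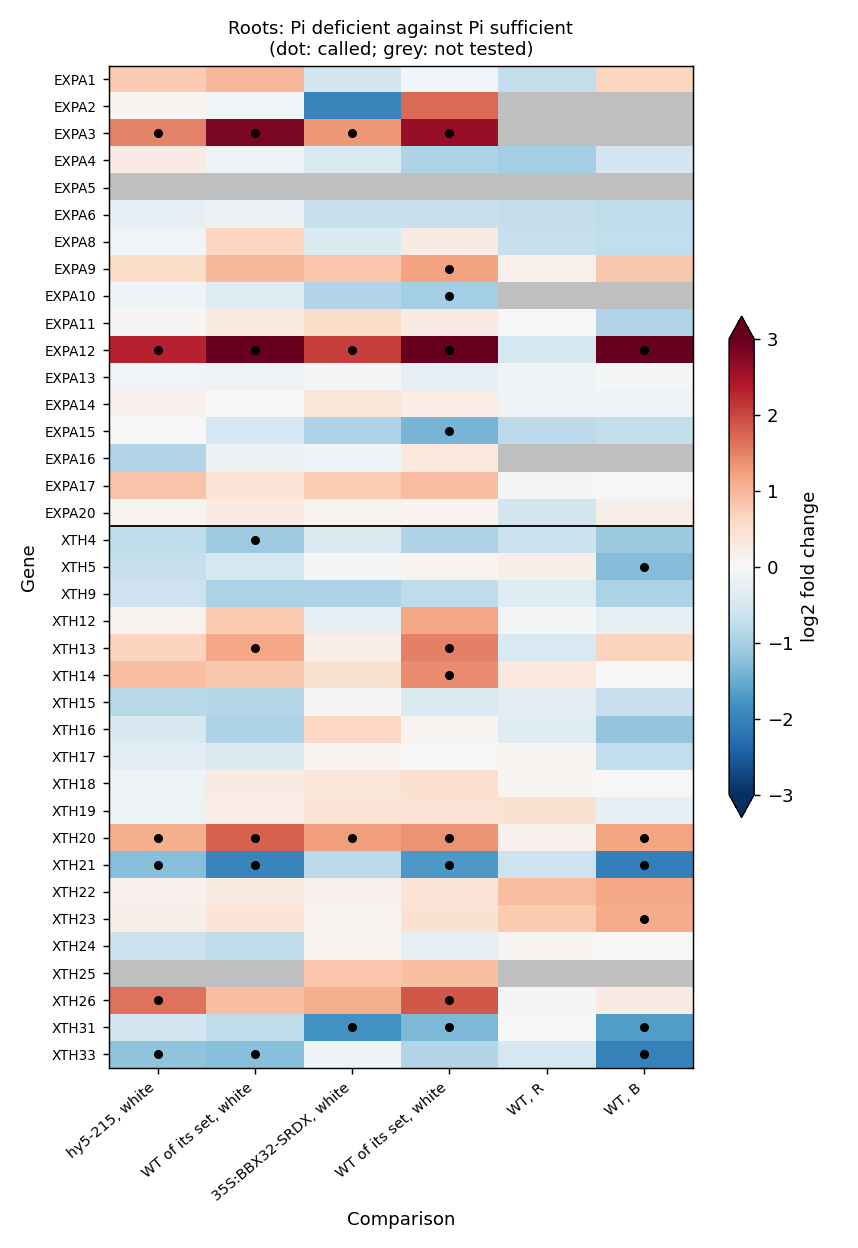
Log2 fold change of each member (rows, alpha-expansins above the line, XTH genes below) in Pi-deficient against Pi-sufficient roots, for 6 comparisons (columns), with dots on called members and grey for members not tested. EXPA12, EXPA3 and XTH20 are red and XTH21 is blue in each white-light WT, while the R column has no dot; colours saturate at 3 and -3.

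In the light set the question was whether this response depended on light quality. Under R, 0 of 31 members were called by limma between Pi-deficient and Pi-sufficient roots, where 2.89% of all genes were called, and 5 members had an unadjusted p under 0.05. Under B, 7 of 31 were called, 3 higher and 4 lower, where 6.18% of all genes were (3.16% higher and 3.02% lower). EXPA12, XTH20 and XTH23 were higher and XTH21, XTH33, XTH31 and XTH5 were lower in Pi-deficient roots under B, and the block added XTH4 (-1.12, adjusted p = 0.0159), where 7.53% of all genes were called. The 7 calls under B became 3 without a filter on dim probes, 1 with normexp background correction and 2 with the authors' table. EXPA12 and XTH20 were called higher, and XTH21 lower, in Pi-deficient roots of all 3 WT groups that did not grow under R. In the light set EXPA12 entered the test only through the Pi-deficient B arrays, where it was high. Its call under B is therefore no independent support for the calls under white light. The difference of responses between R and B was not called for XTH20 or XTH21.

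Under R, EXPA12 stood at -5.59 and -6.69 in Pi-deficient and at -5.07 and -6.15 in Pi-sufficient roots, on no array well above background. Under B it stood at -2.07 and -1.98 in Pi-deficient roots, against -4.78 and -5.76 in Pi-sufficient roots, where neither array was well above background, so that it was at least 3.07-fold higher in Pi-deficient roots. Such bounds set the mean of the brighter group against the dimmest signal well above background on each array of the dim group, or the probe's own signal where that was higher. The 2 R groups overlapped and the 2 B groups did not. The difference between the Pi responses under R and B passed the test for EXPA12 alone of 31 members in roots (limma adjusted p = 0.0464), where 1.23% of all genes did (0.749% higher and 0.485% lower). The probe entered the test only through the Pi-deficient B arrays, the single group of the 4 in which it was above background, so that this difference has no measured size. With the replicate block it passed too (adjusted p = 0.00702), as did XTH33 (adjusted p = 0.0499), which was not above background in Pi-deficient B roots, and XTH5 (1.48 as R minus B, adjusted p = 0.0354), where 2.52% of all genes did. Leaving out any 1 of 7 of the 8 arrays ended the call of EXPA12.

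XTH20 was at -0.68 and -0.92 in Pi-deficient and at -0.77 and -1.1 in Pi-sufficient roots under R. Under B it was at 0.63 and 0.06, against -0.76 and -0.93. For XTH21 the R values were -3.14 and -2.72 in Pi-deficient and -2.37 and -2.23 in Pi-sufficient roots, and the B values were -5.25 and -4.15, both not well above background, against -2.70 and -2.60. XTH21 was thus at least 1.99-fold lower in Pi-deficient roots under B, and XTH33 at least 2.03-fold lower. The difference of responses was not called for XTH20, XTH21 or XTH33 without the block. Single arrays ended the calls under B of XTH20 (0.91 to 1.47), XTH23 (0.78 to 1.44), XTH5 (-1.48 to -1.11) and, without the Pi-sufficient B replicate 1, XTH31 (-1.99 to -1.35).

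The direct comparison of R with B in Pi-deficient roots called 7 of 31 members, 4 higher and 3 lower under R, where 5.54% of all genes were called (3.52% higher and 2.02% lower). In Pi-sufficient roots 0 were called by limma, where 0.296% of all genes were, and 5 had an unadjusted p under 0.05. EXPA12 was at least 4.22-fold lower under R than under B in Pi-deficient roots. XTH13 (AT5G57540) was at -3.19 and -3.50 under R and at -0.72 and -1.48 under B (log2 fold change -2.25 ± 0.28), and XTH20 fell by 1.14. XTH5 (1.60) and XTH15 (1.15) were higher under R, and XTH21 and XTH33 were at least 1.64-fold and 1.22-fold higher. These calls depended on the processing, since normexp background correction left 0 of the 7, the authors' table of processed values gave 2 calls and no filter on dim probes gave 2, and under normexp the log2 fold change of XTH33 was -0.06.

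With the replicate number as a block the count in Pi-deficient roots became 5 higher and 5 lower, with EXPA1 (-1.27), XTH12 (-1.03) and XTH16 (1.31) added, where 6.94% of all genes were called. The leaf markers, which are photosynthesis genes, also moved with light, since all 5 were lower under R in Pi-deficient roots and 3 were called, with summed log2 levels of 1.12 to 2.04 under R and 3.29 to 4.61 under B. Their part in the member values was not tested. These comparisons share the Pi-deficient B arrays with the Pi response under B. Single arrays ended the calls of XTH15 (0.78 to 1.52 over the refits), XTH20 (-1.43 to -0.86), XTH5 (1.27 to 1.92), XTH21 and XTH33.

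**Figure D2:**
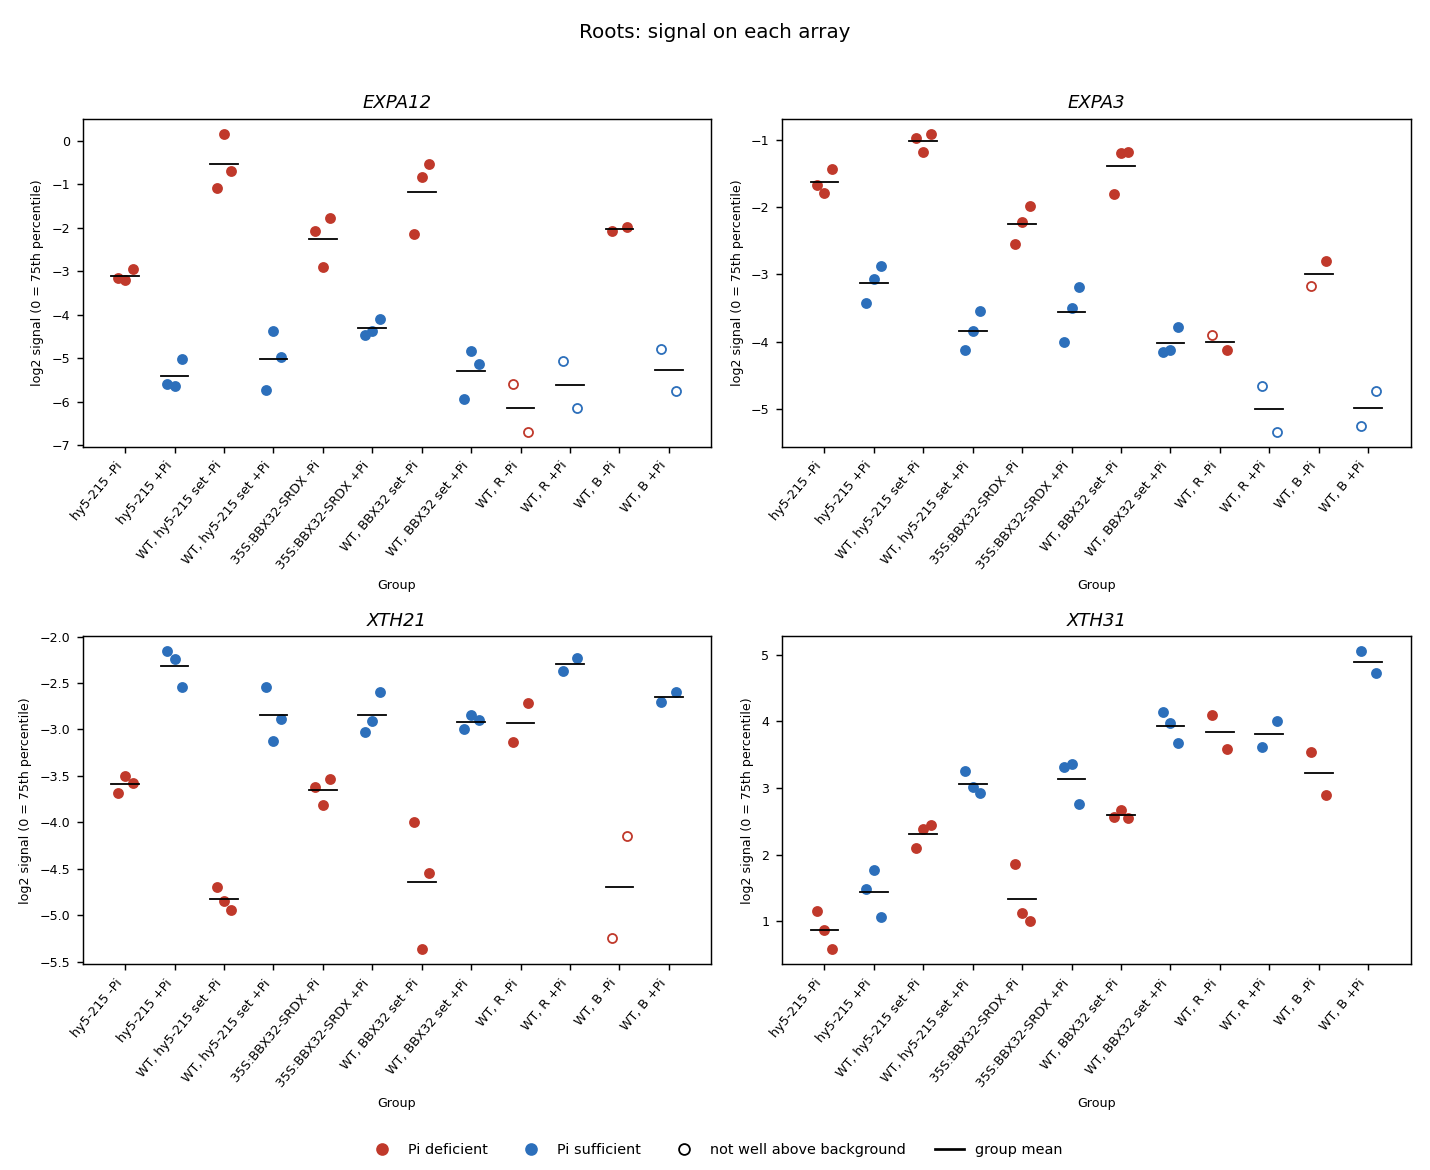
Log2 signal of EXPA12, EXPA3, XTH21 and XTH31 on every root array (points; open where not well above background) and the group mean (bars), with Pi-deficient groups in red and Pi-sufficient groups in blue. EXPA12 lies between -3.19 and 0.17 in the Pi-deficient groups of the white-light sets and B, but at -5.59 and -6.69 in Pi-deficient roots under R.

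The lines addressed whether roots that lack HY5, or that carry the BBX32 repressor, express these genes differently. In Pi-deficient roots of hy5-215, 6 of 35 members were called against its WT, 2 higher and 4 lower, where 6.07% of all genes were called (2.9% higher and 3.17% lower). In Pi-sufficient roots 4 were called, 1 higher and 3 lower, where 5.05% of all genes were (2.04% higher and 3.02% lower). In 35S:BBX32-SRDX, 3 of 36 members were called in Pi-deficient roots, 1 higher and 2 lower, where 5.22% of all genes were (2.53% higher and 2.69% lower). In its Pi-sufficient roots 0 were called by limma, where 0.716% of all genes were, and 9 had an unadjusted p under 0.05.

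XTH31 (AT3G44990), an enzyme known to cut xyloglucan by hydrolysis, was lower in both lines. In Pi-deficient roots it was at 1.15, 0.87 and 0.58 in hy5-215 and at 2.10, 2.38 and 2.45 in its WT (log2 fold change -1.44 ± 0.20), and in Pi-sufficient roots at 1.48, 1.77 and 1.06 in hy5-215 and at 3.25, 3.01 and 2.92 in its WT (-1.62 ± 0.20). In Pi-deficient roots of 35S:BBX32-SRDX it was at 1.86, 1.13 and 1.01, against 2.56, 2.67 and 2.55 in its WT (-1.26 ± 0.23). No array of either line reached its WT in these comparisons. In Pi-sufficient roots of 35S:BBX32-SRDX it was at 3.31, 3.36 and 2.76 and in its WT at 4.14, 3.98 and 3.68, a difference that was not called.

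XTH12 (AT5G57530) was also lower in Pi-deficient roots of both lines, at -1.06 ± 0.21 (log2 fold change ± SE) for hy5-215 and -1.47 ± 0.37 for 35S:BBX32-SRDX. Its values were -2.08, -2.47 and -2.20 in hy5-215 and -1.13, -1.23 and -1.20 in its WT, and -2.59, -1.85 and -2.06 in 35S:BBX32-SRDX and -0.92, -0.61 and -0.55 in its WT. Each line lay below its own WT on every array. The log2 fold change of XTH13 was -1.28 in 35S:BBX32-SRDX, which the block called (adjusted p = 0.0128) and the fit without it did not (0.0977). XTH12 in 35S:BBX32-SRDX was lost without the WT replicate 2 array of high BBX32 signal (-1.44, adjusted p = 0.0987), and XTH12 in hy5-215 without its Pi-deficient replicate 2 (-1.15 to -0.95 over the refits). XTH33 was higher in Pi-deficient roots of 35S:BBX32-SRDX, at -1.25, -1.43 and -1.47, against -2.54, -3.27 and -2.73 in its WT. Its log2 fold change was 1.46, and 1.25 without the WT replicate 2 array.

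EXPA12 was lower in Pi-deficient hy5-215 roots, at -3.16, -3.19 and -2.94, against -1.08, 0.17 and -0.69 in the WT (log2 fold change -2.56 ± 0.37, adjusted p = 0.00117). In the Pi-sufficient state it was not called. EXPA10 (AT1G26770), an expansin known from leaf growth, fell by 1.61 ± 0.25 in Pi-deficient and by 1.86 ± 0.25 in Pi-sufficient roots of hy5-215 on the log2 scale. It was at -5.31, -5.54 and -5.11 in Pi-deficient hy5-215 roots and at -3.22, -3.95 and -3.95 in its WT. The hy5-215 arrays all lay below the WT arrays. XTH16 was higher in Pi-deficient hy5-215 roots, at 0.65, 0.68 and 0.58, against -0.81, -0.65 and -0.27 in the WT. XTH21 was higher there too (1.24), and in Pi-sufficient roots EXPA8 (1.66) was higher and EXPA17 (-1.08) lower, the last lost without any 1 of 5 single arrays (-1.38 to -0.74).

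The Pi response was also fitted within each line, from the same arrays as the comparisons of lines with WT. EXPA12 rose by 2.32 in hy5-215 and by 2.07 in 35S:BBX32-SRDX, against 4.49 and 4.13 in their WTs, and EXPA3 rose by 1.49 in hy5-215 and 1.31 in 35S:BBX32-SRDX, against 2.81 and 2.62. The difference of responses was not called by limma for any member, with 7 members under an unadjusted p of 0.05 in the hy5-215 set and 8 in the 35S:BBX32-SRDX set, where 0.55% and 0.0711% of all genes were called. With the replicate block, the difference was called for EXPA12 (-2.17, adjusted p = 0.0488) and EXPA3 (-1.32, adjusted p = 0.0143) in hy5-215, and for EXPA3 (-1.31, adjusted p = 0.0223) and XTH4 (0.52, adjusted p = 0.0357) in 35S:BBX32-SRDX, where 2.94% and 0.689% of all genes were called.

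In all, 6 of 35 members were called between Pi levels in hy5-215 and 4 of 36 in 35S:BBX32-SRDX, where 3.57% (2.44% higher and 1.13% lower) and 3.29% (1.56% higher and 1.74% lower) of all genes were. They were EXPA12, EXPA3, XTH20, XTH26, XTH21 and XTH33 in hy5-215, and EXPA12, EXPA3, XTH20 and XTH31 in 35S:BBX32-SRDX. XTH26 rose by 1.62 in hy5-215, and in 35S:BBX32-SRDX only the block called it (1.06), where 4.38% of all genes were called. Single arrays ended the calls of XTH20 in hy5-215 (0.80 to 1.30), and of EXPA12 (1.83 to 2.39) and EXPA3 (1.09 to 1.5) in 35S:BBX32-SRDX.

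The leaf markers, which are photosynthesis genes, moved with the lines. In Pi-deficient roots all 5 had negative fold changes in each line, with 4 called for hy5-215 (median log2 fold change -2.22) and 5 for 35S:BBX32-SRDX (median -1.99), with summed log2 levels of 0.82 to 1.31 in hy5-215 and 2.52 to 4.85 in its WT, and of 1.12 to 2.33 in 35S:BBX32-SRDX and 3.24 to 4.52 in its WT. In Pi-sufficient roots of hy5-215 all 5 leaf markers were called lower (median -2.42), with summed log2 levels of 1.31 to 1.89 in hy5-215 and 4.29 to 4.49 in its WT, where EXPA10, called higher in shoots than in roots in all 8 comparisons of the organs, was among the 4 calls. In those of 35S:BBX32-SRDX 0 were called by limma, with 2.86 to 4.59 in the line and 4.73 to 5.10 in its WT. All 7 root hair markers had negative fold changes in Pi-deficient roots of 35S:BBX32-SRDX against WT, with RSL4, a regulator of root hair growth, called (-1.44). Their summed log2 level there was 3.54 to 4.31 in the line and 4.53 to 4.80 in its WT. In Pi-deficient hy5-215 roots it was 3.79 to 4.26, which overlapped the 4.13 to 4.27 of its WT. The part of these markers in the member values was not tested.

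**Figure D3:**
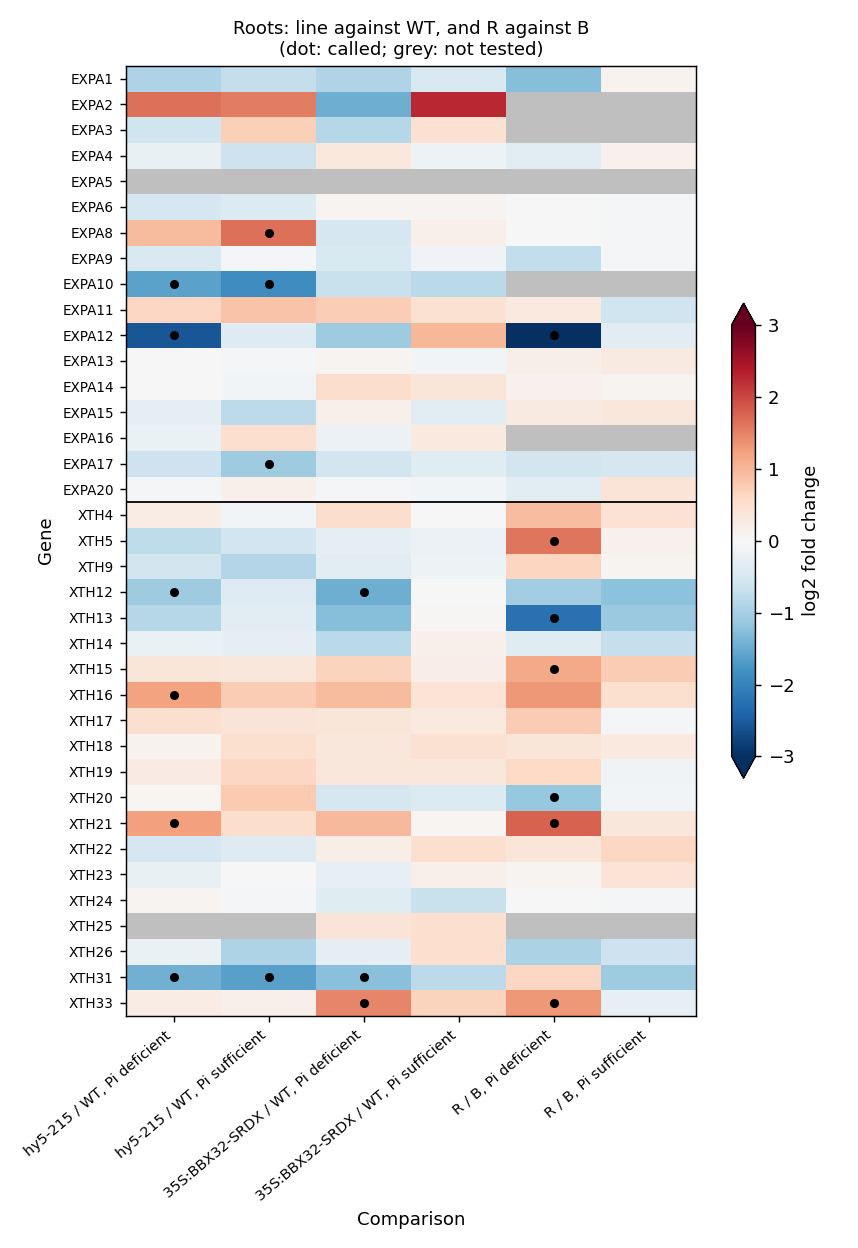
Log2 fold change of each member (rows) in roots, for each line against its WT and for R against B at each Pi level (columns), with dots on called members and grey for members not tested. XTH31 is blue and called in hy5-215 at both Pi levels and in Pi-deficient 35S:BBX32-SRDX, and EXPA12 is blue in Pi-deficient hy5-215 and under R; colours saturate at 3 and -3.

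Other wall genes were counted for comparison, beside the shares of all genes called in the same comparisons, 6.07% and 5.05% in Pi-deficient and Pi-sufficient hy5-215 roots, 5.22% in Pi-deficient 35S:BBX32-SRDX roots, and 7.23% and 5.76% for the Pi responses of the WTs of the hy5-215 and 35S:BBX32-SRDX sets. Of 9 other XTH genes tested in Pi-deficient hy5-215 roots, XTH7 (-3.06), XTH32 (-2.62) and XTH11 (-2.39) were lower and 0 were higher, and XTH7 (-2.71) and XTH32 (-2.27) were lower in Pi-sufficient roots too. In Pi-deficient roots of 35S:BBX32-SRDX, XTH32 (-1.35) and XTH11 (-1.06) were lower and XTH2 was at least 1.72-fold higher. CSLC12, a glucan synthase for xyloglucan, rose with Pi deficiency in both WTs (1.32 in the hy5-215 set and 1.98 in the 35S:BBX32-SRDX set) and was the only one of 16 xyloglucan synthesis and trimming genes called in either. AHA7 was the only one of 10 plasma membrane proton pumps tested that was called there, higher by 1.05 and 1.26.

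Shoots were compared in the same way. In all, 36 of the 37 members were tested in the hy5-215 set, 37 in the 35S:BBX32-SRDX set and 23 in the light set, where 14 were too dim. The line comparisons called 0 members in any of 4 tests with limma, where 0.159% and 0.042% of all genes were called in Pi-deficient and Pi-sufficient hy5-215 shoots, and 0.126% and 0.0233% in 35S:BBX32-SRDX. The counts at an unadjusted p under 0.05 were 2, 0, 8 and 4 in the same order. The block called EXPA14 (1.22) and XTH15 (1.49) in Pi-deficient 35S:BBX32-SRDX shoots, where 1.2% of all genes were called, and EXPA17 (-1.74), where 0.886% were, in the Pi-deficient shoot libraries labelled hy5-215, whose HY5 signal did not follow the label.

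Pi deficiency raised XTH19 (AT4G30290) in shoots of all 3 WT groups outside R. In the WT of the hy5-215 set it was at -1.49, -1.60 and -1.51 in Pi-deficient and at -5.57, -5.25 and -4.11 in Pi-sufficient shoots (log2 fold change 3.44 ± 0.44), in the WT of the 35S:BBX32-SRDX set it rose by 1.47, and under B it was at least 1.80-fold higher. Under R it was at -2.43 and -2.65 in Pi-deficient and at -3.33 and -4.05 in Pi-sufficient shoots, groups that did not overlap, and was not called (1.15, adjusted p = 0.129). XTH19 was called higher in roots than in shoots in 6 of 8 comparisons. The summed level of 5 root markers (CASP1, ESB1, TIP2;3, NRT2;1 and PHT1;1) was higher in Pi-deficient shoots of the light set. It was 2.61 to 2.62, against 0.75 to 0.85, under B and 2.25 to 2.36, against -0.18 to 0.04, under R, where PHT1;1 was the only 1 called. In Pi-sufficient shoots only 1 of the 5 was above background on the B arrays and 1 to 2 on the R arrays. In Pi-deficient shoots 1 to 3 were on the B arrays and 3 to 4 on the R arrays. PHT1;1 is itself known to rise when Pi is scarce. The part of the root markers was not tested. Of 36 members tested in the WT of the hy5-215 set 3 were called, all higher, where 7.42% of all genes were (5.82% higher and 1.6% lower). The block called 9 higher and 2 lower there, where 10.4% of all genes were, and added XTH14 (3.28), XTH31 (1.68), XTH18 (1.43), XTH12 (at least 1.92-fold higher), XTH21 (1.12), XTH24 (1.1), EXPA8 (-1.45) and XTH15 (-1.02). Of 37 members in the WT of the 35S:BBX32-SRDX set 5 were called, 4 higher and 1 lower, where 7.77% of all genes were (6.82% higher and 0.947% lower). The block called 7 higher and 2 lower there, where 9.7% of all genes were, and added XTH31 (1.24), XTH18 (1.19), XTH20 (1.05) and XTH25 (-1.23).

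EXPA1 (AT1G69530) was the other shoot gene called in both white-light WTs, higher by 1.07 in Pi-deficient shoots of the hy5-215 set and by 1.28 in those of the 35S:BBX32-SRDX set. Under B it went the other way, at 1.39 and 1.09 in Pi-deficient and 2.45 and 2.57 in Pi-sufficient shoots. Further calls in the WT of the 35S:BBX32-SRDX set were EXPA12, at least 2.66-fold higher, XTH14 (1.70) and XTH15 (-1.74), and in the WT of the hy5-215 set XTH20 (2.0).

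XTH14 and XTH20 were called higher in roots than in shoots in every WT comparison of the organs, and root hair markers moved beside them in shoots. In the WT of the hy5-215 set 5 of 5 root hair markers tested were higher in Pi-deficient shoots, with COBL9 called (at least 4.09-fold higher). The summed log2 level of all 7 root hair markers was -2.86 to -0.81 in Pi-deficient and -3.89 to -3.30 in Pi-sufficient shoots. Of these 7, 4 to 7 were above background on the Pi-deficient arrays and 3 on the Pi-sufficient arrays. For the WT of the 35S:BBX32-SRDX set the summed level was -2.90 to -2.68 in Pi-deficient and -3.08 to -2.64 in Pi-sufficient shoots. The summed level of the 5 root markers was higher with Pi deficiency too, at 1.58 to 1.86, against -0.96 to -0.63, in the WT of the hy5-215 set and at 0.95 to 1.80, against -1.0 to -0.15, in the other WT. PHT1;1, a phosphate transporter that plants are known to induce when Pi is scarce, was the only 1 of the root markers called in either (2.83 and 2.42). The part of these markers was not tested. XTH14 was lost without any 1 of 9 single arrays (1.37 to 2.19) and XTH20 without any 1 of 8 (1.67 to 2.57). Single arrays also ended the calls of EXPA1 in the hy5-215 set (0.81 to 1.30), and of EXPA1 (1.13 to 1.40), XTH19 (1.1 to 1.72) and XTH15 (-2.21 to -1.42) in the 35S:BBX32-SRDX set.

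Light quality was set against Pi in shoots too. Under R, 2 of 23 members were called in Pi-deficient against Pi-sufficient shoots, both higher, where 4.4% of all genes were called (3.82% higher and 0.584% lower). Under B, 12 of 23 were called, 5 higher and 7 lower, where 20.3% of all genes were (11.6% higher and 8.64% lower). Within the lines, 0 members were called by limma between Pi levels in shoots, where 1.56% of all genes were for hy5-215 and 2.8% for 35S:BBX32-SRDX, and 6 and 4 members had an unadjusted p under 0.05. The block called XTH19 (1.71) and EXPA10 (1.14) in shoots labelled hy5-215 and XTH15 (-1.49) in 35S:BBX32-SRDX, where 4.75% and 4.86% of all genes were called. The Pi responses of the lines minus those of their WTs gave 0 members by limma in shoots, with 2 and 0 at an unadjusted p under 0.05 and 0% of all genes called.

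Under B, 5 XTH genes rose in Pi-deficient shoots. XTH23 (AT4G25810) was at 2.52 and 2.80 in Pi-deficient and at -1.38 and -1.08 in Pi-sufficient shoots (log2 fold change 3.89 ± 0.28), and under R at -1.36 and -1.68, against -2.50 and -3.26. XTH18 (AT4G30280) was at 4.80 and 4.69 in Pi-deficient and at 1.08 and 1.06 in Pi-sufficient shoots under B, and at 1.69 and 1.74, against 0.75 and 0.19, under R. Both genes were highest in Pi-deficient shoots under B. XTH25 (AT5G57550) was at 0.89 and 0.69 in Pi-deficient and at -2.34 and -2.48 in Pi-sufficient shoots under B, at least 8.97-fold higher. XTH24 (1.30) and XTH19 were the other 2. XTH18, XTH19 and XTH24 are neighbours on chromosome 4, as are XTH23 and XTH14, and XTH25 lies beside XTH13 and XTH22 on chromosome 5, so close copies may share array signal.

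Of the genes that fell under B in Pi-deficient shoots, XTH15 (AT4G14130) was at -1.25 and 0.08, against 3.89 and 4.12 in Pi-sufficient shoots (log2 fold change -4.59 ± 0.53). EXPA8 was at -2.42 and -1.67, against 0.33 and 0.34. XTH4 (-2.03), EXPA11 (-1.37), EXPA14 (-1.31), EXPA1 (-1.27) and XTH9 (-1.05) fell as well, so that 4 of the 11 alpha-expansins tested were lower and 0 higher. The block added EXPA15 (higher, with 1 of 4 arrays above background) and XTH16 (-1.04) under B, where 20.8% of all genes were called, and XTH15 (-1.20) under R, where 5.75% were. All 5 leaf markers were lower in the same shoots (median log2 fold change -1.43), and their part was not tested. Single arrays ended the calls of EXPA14 (-1.79 to -0.83) and XTH9 (-1.5 to -0.61), of XTH19 and XTH24 (1.03 to 1.56) under B, and of XTH18 (0.97 to 1.53) and XTH23 (0.99 to 1.74) under R.

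The response was called different between R and B for 6 of 23 members in shoots, 3 higher and 3 lower as R minus B, where 1.49% of all genes were (0.549% higher and 0.941% lower). They were EXPA8 (2.82 ± 0.38), EXPA1 (1.54 ± 0.26) and EXPA11 (1.51 ± 0.25), higher, and XTH23 (-2.53 ± 0.39), XTH18 (-2.43 ± 0.29) and XTH25, lower. The difference of XTH25 (adjusted p = 0.0435) has no measured size, since its probe was above background on 0 of 2 Pi-sufficient B arrays and 1 of 2 Pi-deficient R arrays, and that of XTH23 rests on 1 of 2 Pi-sufficient R arrays above background. Under the block XTH23, EXPA11 and EXPA1 missed the threshold (adjusted p 0.0559, 0.0576 and 0.0599), and XTH15 (3.39, adjusted p = 0.0368) and XTH4 (1.80, adjusted p = 0.0476) were added, where 1.15% of all genes were called. Counted over the shoots of all sets, the 6 calls became 0 without a filter on dim probes, 4 with the authors' table and 9 with normexp background correction. Of 2 further EXPA8 probes, 1 gave -2.43 for the Pi response under B, where the probe used gave -2.38, and the other, above background on 2 arrays only, gave 0.04.

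R against B gave 0 of 23 members in Pi-sufficient shoots by limma, where 0.245% of all genes were called, and 9 had an unadjusted p under 0.05. The block called XTH15 there (-2.73, adjusted p = 0.0407), where 0.228% of all genes were. In Pi-deficient shoots it gave 11 of 23, 6 higher and 5 lower under R, where 9.59% of all genes were (4.31% higher and 5.28% lower). XTH23 (-4.18), XTH25 (-3.19, with 1 of 2 R arrays above background) and XTH18 (-3.03) were lower under R, and EXPA8 (2.69), EXPA11 (2.28) and XTH4 (1.99) higher. XTH22 (-1.39), the touch gene also called TCH4, was called without the block and missed it with the block (adjusted p = 0.0532). Single arrays ended the calls of XTH22 (-1.84 to -0.93), XTH24 (-1.30 to -0.76) and XTH9 (0.84 to 1.72).

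**Figure D4:**
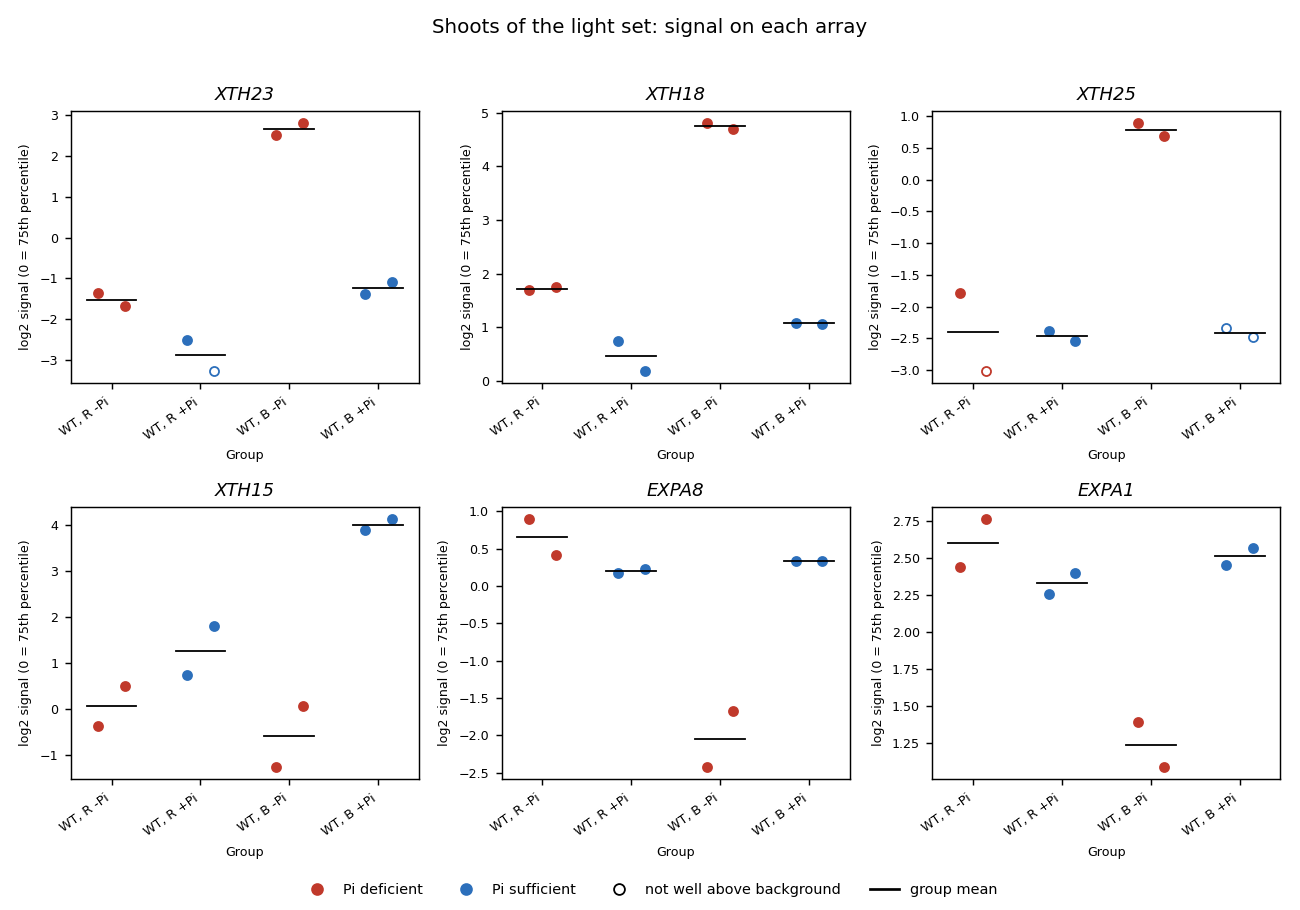
Log2 signal of 6 members on each shoot array of the light set (points; open where not well above background) and the group mean (bars). XTH23, XTH18 and XTH25 are highest in Pi-deficient shoots under B, while EXPA8 and EXPA1 are lowest there.

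Roots and shoots of the WTs differed in most members. In 8 comparisons of root with shoot, each root group of a WT against the shoot group of the same set and treatment, 17 to 19 of 35 to 37 members were called higher and 12 to 14 lower in roots, where 41.4 to 46.5% of all genes were called, 23.8 to 27.6% higher and 17.5 to 19.3% lower (all calls were 42.6% and 41.4% in Pi-deficient and Pi-sufficient plants of the hy5-215 set, 43.9% and 43.1% in the 35S:BBX32-SRDX set, 42.3% and 44.4% under R, and 43.1% and 46.5% under B). EXPA9, EXPA14, EXPA15, EXPA17, EXPA20, XTH5, XTH14, XTH17 and XTH20 were called higher in roots in all 8. EXPA5, EXPA6, EXPA10, XTH4, XTH9, XTH16, XTH24 and XTH25 were called higher in shoots in all 8. XTH14 was higher in roots by 7.38 to 8.30 on the log2 scale in the 3 comparisons in which all its arrays were well above background, and at least 22.1-fold to 35.1-fold higher in the 3 of the light set in which no shoot array was. EXPA5 was at least 4.47-fold to 109-fold lower in roots in the 5 comparisons in which no root array was above background, and in the other 3 it was above background on 1 of 3 root arrays. EXPA17 and EXPA14 are known from lateral root formation in this species.

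Of the members that Pi deficiency moved in roots, XTH20 was called higher in roots in all 8 comparisons, EXPA3 was called higher in shoots in 7 of 8 comparisons, and EXPA12 was called higher in roots in 5 of 8. In the other 3, all in the light set, EXPA12 was not well above background on any array of either organ. EXPA8, EXPA11 and XTH23 were called in both directions over the 8.

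**Figure D5:**
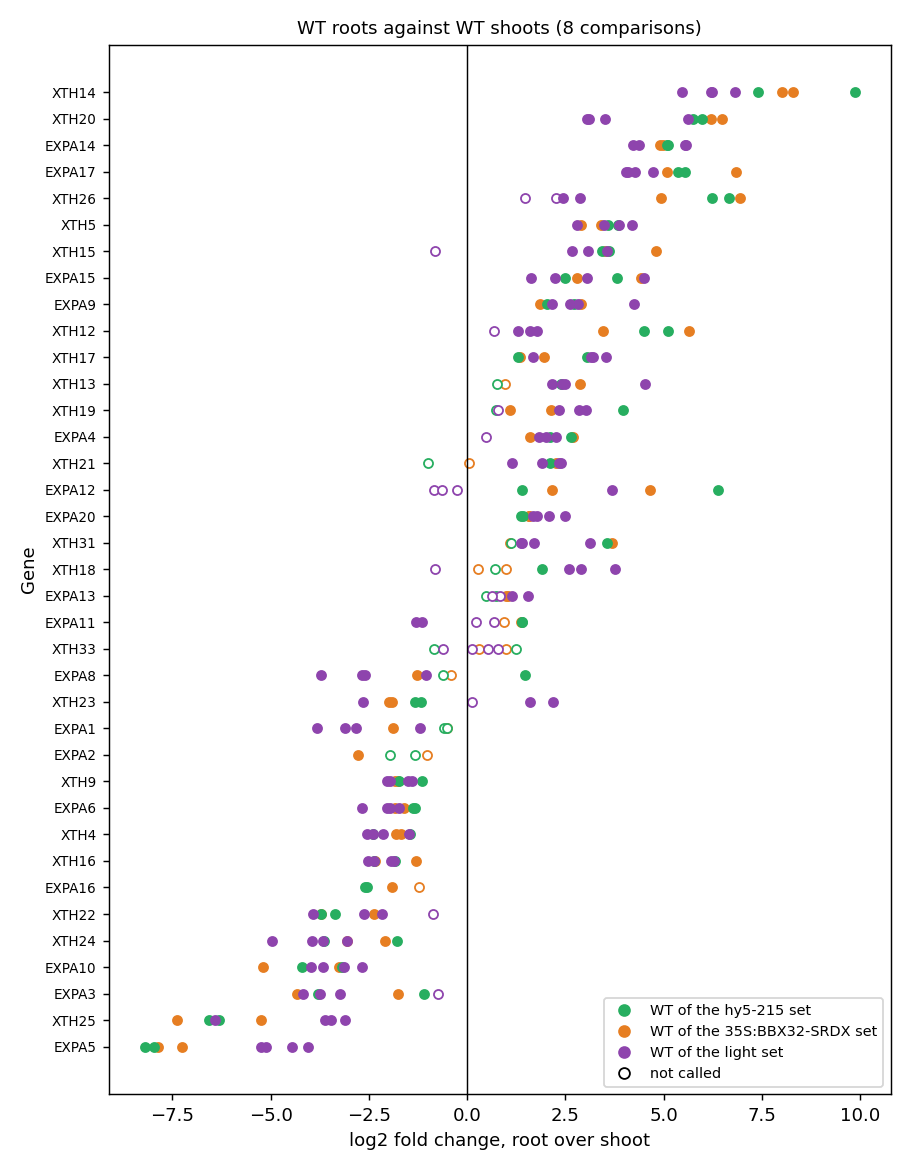
Log2 fold change of root over shoot for each member (rows) in 8 WT comparisons (points, filled where called), coloured by set. The points of XTH14 are all filled and above 0 and those of EXPA5 all filled and below 0, and a point against a group not well above background, as for EXPA5 in roots, is a fitted value and no measured size.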

How the data were processed

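RNA of 64 samples had been hybridised by the authors to Agilent 4x44k one-colour arrays and scanned. The deposited scanner files held Feature Extraction output (version 11.5.1.1 for 40 arrays and 9.1.3.1 for 24), of which the processed intensity (background-subtracted) and the flag for signal well above background were used. The authors' own table held values on a natural log scale, which matched the log of the processed intensity less a constant per array in the white-light sets and only loosely in the light set. It served as an alternative.

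Each array's log2 intensity was centred on its 75th percentile. Of 43603 probes 83.2% were matched by locus to 26783 genes, and a gene with several probes was represented by the one with the highest mean. Testing required every array of 1 or more groups of the organ to carry the flag for that probe. One limma 3.58.1 model per set and organ was fitted in R 4.3.3, with Benjamini-Hochberg adjustment over all genes tested. For a difference of responses the adjusted p alone made the call. Genes named are those called, with the values of every array for the ones described first. The fit and the call were tested on simulated root arrays of independent noise, with every probe flagged as above background. That test therefore does not cover slide effects or the filter on dim probes.

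The replicate number marked the slide, which held 4 groups of 1 organ, each group at the same place on its slides, so place and group cannot be told apart. Samples of 1 slide deviated together (mean correlation of deviations 0.46 to 0.65 in the white-light sets, 0.18 and 0.24 in the light set). Fits with the slide as a block, other scalings, background correction, probe choice and filters, and single arrays left out were the alternatives. The members and lists were chosen with earlier results of these data known.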

Additional observations from a re-analysis of the deposited data

Results flagged for a closer look

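Differences between the Pi responses under R and B passed the test for 7 members, 1 in roots and 6 in shoots (R minus B, 2 arrays per group, limma). In roots this was EXPA12 (fitted value -3.78, adjusted p = 0.0464) and in shoots XTH25 (fitted value -3.12, adjusted p = 0.0435). Neither fitted value is a measured size, because EXPA12 was above background only in Pi-deficient B roots and XTH25 on no Pi-sufficient B array. The other differences in shoots were 2.82 ± 0.38 for EXPA8 (0.033), -2.53 ± 0.39 for XTH23 (0.0391, with 1 of 2 Pi-sufficient R arrays above background), -2.43 ± 0.29 for XTH18 (0.0242), 1.54 ± 0.26 for EXPA1 (0.045) and 1.51 ± 0.25 for EXPA11 (0.0435). With 1 array left out the call ended for EXPA12 in 7 of 8 refits, for EXPA11 in 8, for EXPA1, EXPA8 and XTH23 in 7, for XTH25 in 6 and for XTH18 in 5, and the sign stayed in each. A refit leaves 1 sample in an arm, which is assumed to vary like the other groups.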

How the results depend on the processing

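Calls of members were counted over each family of comparisons. For 35S:BBX32-SRDX against WT, 3 calls in roots became 7 by adjusted p alone (all genes 10.6% and 1.05% in Pi-deficient and Pi-sufficient roots, beside 5.22% and 0.716%), and 0 in shoots became 2 with the replicate block. For hy5-215 against WT, 10 in roots became 29 by adjusted p alone (all genes 18.7% and 14.5%, beside 6.07% and 5.05%), and 0 in shoots became 1 with the block. For the Pi responses under white light, 28 in roots became 53 by adjusted p alone (all genes 6.55 to 27%, beside 3.29 to 7.23%), and 8 in shoots became 5 without a filter, 3 with normexp correction and 23 with the block. For those under B and R, 7 in roots became 3 without a filter, 1 with normexp and 2 with the authors' table, and 14 in shoots became 8 with normexp. For R against B, 7 in roots became 2 without a filter, 0 with normexp and 2 with the authors' table. For differences of Pi responses, 1 in roots became 2 with the mean of probes, 0 without a filter, 0 with normexp, 2 with quantile scaling, 7 with the block and 0 with the authors' table, and 6 in shoots became 0 without a filter. Each refit with 1 array left out changed only the fits that hold that array. All called differences of responses lay in the light set, so refits of the other sets kept those calls in the count. Leaving out 1 array gave 2 to 5 calls for 35S:BBX32-SRDX in roots and 0 to 0 in shoots, 9 to 11 and 0 to 0 for hy5-215, 25 to 32 and 4 to 11 for Pi under white light, 4 to 8 and 10 to 16 for Pi under B and R, 2 to 7 and 9 to 11 for R against B, 0 to 2 and 0 to 6 for differences of responses, and 235 to 243 for the organs.

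Under normexp the sign turned for XTH12 (-0.20), XTH13 (-0.10) and XTH21 (-0.06) in Pi-deficient roots against shoots under R, for XTH13 (-0.15) and XTH21 (-0.07) in Pi-sufficient ones, and for XTH33 in Pi-deficient roots under R against B (-0.06). Its offset shrinks folds at the low signals of the light set by construction. The search of promoters for motifs was not run. Dim probes limit the light set most, where 6 members in roots and 14 in shoots were not tested.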
